A study of Melitaea cinxia with 170 samples.

Results

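The 17 females sampled about 1 h after flight were 7 from AL (Åland) and 10 from PT (Pikku Tytärsaari), both islands in the Baltic Sea. They were taken as all butterflies whose labels read female and Flight1h, and they made up 17 of the 85 butterflies and 34 of the 170 libraries of a thorax RNA sequencing study of the Glanville fritillary (Melitaea cinxia). The study sampled flown and unflown butterflies of both islands and both sexes at 1 h and at about 20 h. Islands were also compared in control females at 1 h (4 AL and 4 PT), which were moved to the flight conditions but not flown. The same was done in flown females at 20 h (10 AL and 9 PT), which spent the night caged with food, and flown males at 1 h (6 AL and 6 PT). Values are also quoted for control females at 20 h (4 AL and 5 PT) and flown males at 20 h (5 AL and 6 PT). Control males are quoted at 1 h (2 AL and 3 PT) and at 20 h (2 AL and 2 PT). All 85 butterflies entered the fit. The labels name no genotype beyond the island population. Age, family, rearing, flight duration and dates of extraction and sequencing are not stated in the labels, so a batch that followed the islands cannot be told apart from the islands.

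The thorax of a butterfly is filled mostly with flight muscle, with smaller amounts of fat body, cuticle, gut and nervous tissue. Insect flight muscle is among the most energy-demanding of animal tissues, and it raises its fuel use many-fold when a butterfly takes off. The Glanville fritillary lives in Åland as a metapopulation, a network of small meadow populations that go extinct and are recolonised by dispersing females, whereas Pikku Tytärsaari holds a small and isolated population. The comparison of islands asks how far thorax transcript levels differ between females of these populations that had flown shortly before. In bulk thorax RNA, fewer cells of a type and less RNA per cell cannot be told apart. The gene models carry project identifiers, and 0 of 16667 could be paired with a gene name, so no function, position or sequence is given for any of them, and markers of muscle, fat body or other tissues were not checked. Levels are in CPM, read counts relative to the scaled total of a butterfly, and are not corrected for transcript length. Island differences are taken within a gene. Classes of level and the most abundant genes are ranked by CPM without that correction.

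Counts per butterfly ran from 2123573 to 5276341 in AL females and from 2173156 to 4284097 in PT females. The mean totals were 3143053 ± 1202267 in AL and 3340337 ± 665062 in PT (SD, n = 7 and 10; exact permutation test, 2-sided, p = 0.671). The number of gene models with at least 1 read averaged 9556 ± 652 in AL and 8848 ± 763 in PT (exact permutation p = 0.0655, adjusted p = 0.194 over 4 measures). The factor that scales each total averaged 1.21 ± 0.283 in AL and 1.05 ± 0.0794 in PT (exact permutation p = 0.0969, adjusted p = 0.194). The top 10 genes accounted for 27.0% ± 6.07 of reads in AL and 25.9% ± 2.81 in PT (exact permutation p = 0.632, adjusted p = 0.671). No measure passed the test.

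A group of 4 PT females stood apart from the others in the transcripts that rose with flight. Flight at 1 h was tested over all butterflies as the mean difference between flown and control animals of both islands, and 25 of 7643 genes were called (0.327%), 20 of them higher after flight. The mean log2 CPM of those 20 genes was 4.63, 4.77, 4.82, 4.86, 5.02, 5.02 and 5.25 in the 7 AL flown females. In PT flown females it was 2.35, 2.83, 2.85 and 3.35 in females 4, 2, 7 and 1, and 4.81, 5.31, 5.41, 5.44, 5.45 and 5.79 in the other 6 (butterflies are numbered here within each group). Control females at 1 h ran from 2.10 to 2.49 in AL and from 2.08 to 3.35 in PT. The AL flown females thus formed 1 narrow cluster above all 1 h control females, while PT flown females fell into a cluster of 6 within or above the AL range and a cluster of 4 within the range of 1 h control females. Unflown butterflies were not low throughout: control females at 20 h ran from 2.28 to 4.43 in AL and from 3.17 to 4.97 in PT, and PT control males at 1 h reached 4.71, so some of them lay at the level of flown females. In flown males at 1 h the same mean ran from 4.38 to 5.45 in AL and from 3.27 to 5.54 in PT. The 20 genes were selected with these butterflies in the test, so the means are a description, with no test. How far each female had flown is not stated in the labels, and its part in the split was not tested. The main counts below are therefore also given without these 4 PT females, a setting chosen after the data were seen.

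**Figure D1:**
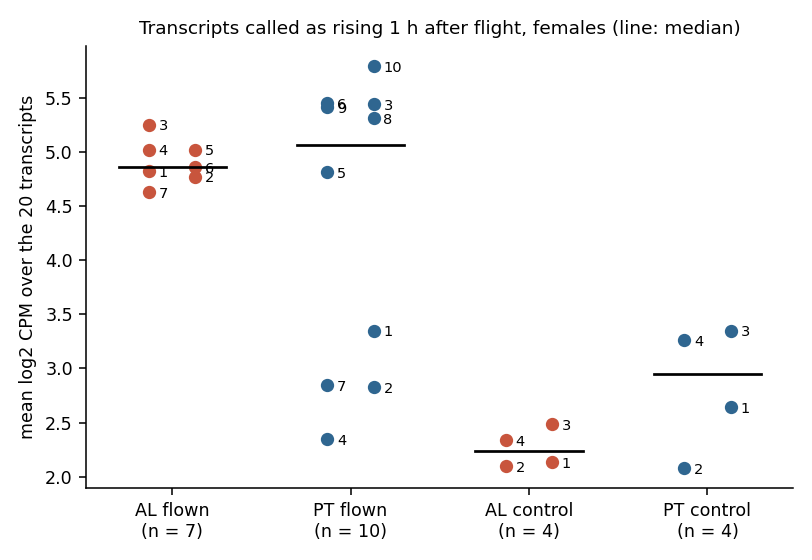
Mean log2 CPM over the 20 transcripts called as rising 1 h after flight, in single females (points, numbered within their group; line: median of the group). The 7 AL flown females lie between 4.63 and 5.25, and 4 of the 10 PT flown females lie between 2.35 and 3.35, within the range of the control females at 1 h.

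The islands differed across a broad set of thorax transcripts. At an adjusted p under 0.05 by edgeR's quasi-likelihood test over 7643 genes, 1343 genes were called (17.6%), of which 752 had the higher level in AL (9.84%) and 591 in PT (7.73%). Of the called genes, 1059 differed more than 2-fold (675 with AL above PT, 384 with PT above AL), and 537 differed more than 4-fold. Large differences were most common at low levels. The share of called genes over 2-fold was 100% under a mean of 5 CPM and 85.4% between 5 and 50 CPM. It was 50.9% between 50 and 500 CPM and 41.5% above 500 CPM. The median size over called genes was 1.67 on the log2 scale, and the smallest was 0.43. Leaving out the 4 PT females gave 1089 called genes (14.2%), 593 with AL above PT and 496 with PT above AL. Of these 1089, 919 were among the 1343, and all 1343 kept their direction in that smaller set of butterflies. The smaller set is part of the same females, so neither count is independent of the first call. With DESeq2 size factors in place of TMM scaling, 874 genes had AL above PT and 492 PT above AL, with the median of all genes at a log2 of 0.12, against 0.03 under TMM.

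The first principal component of log2 CPM held 21.6% of the variance among the 17 females and placed AL females between 26.9 and 69.8 and PT females between -48.2 and -25.8, with no overlap. The second held 10.4% and was spread mainly by PT females, with female 1 at 97.6 and the AL females between -12.8 and 6.5. Of the PT females low for the flight transcripts, females 1, 4, 7 and 2 were at -48.2, -28.5, -28.8 and -25.8 on the first component, and the other 6 PT females ran from -43.8 to -27.3. Across genes, the correlation of log2 CPM between a pair of AL females had a median of 0.85 (21 pairs, 0.818 to 0.892), and that between a pair of PT females a median of 0.86 (45 pairs, 0.799 to 0.922). Pairs of an AL and a PT female had a median of 0.806 (70 pairs, 0.753 to 0.87). These values share the genes' own levels and are a description of the 17 transcriptomes.

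**Figure D2:**
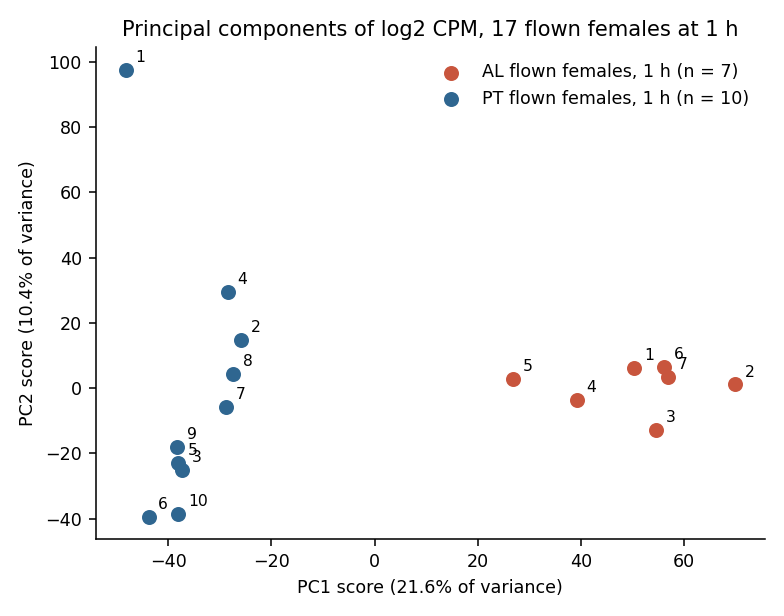
Scores of the 17 flown females on the first and second principal components of log2 CPM (points, numbered within their island; the axes give the percent of variance). AL females lie between 26.9 and 69.8 and PT females between -48.2 and -25.8 on the first component, and PT female 1 lies apart on the second at 97.6.

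The balance of directions changed with the level of the gene. Among genes averaging under 5 CPM over the 17 females, 327 of 2755 were called, 258 with AL above PT and 69 with PT above AL. Between 5 and 50 CPM, 645 of 3594 were called, 389 with AL above PT and 256 with PT above AL. The balance turned above that level. Between 50 and 500 CPM, 289 of 1044 genes were called, 86 with AL above PT and 203 with PT above AL, and above 500 CPM, 82 of 250 were called, 19 with AL above PT and 63 with PT above AL. Strongly expressed genes that differed were thus mostly the ones lower in AL females. The median log2 difference over all genes of a class was 0.29, 0.00, -0.21 and -0.34 from the lowest to the highest class. Under DESeq2 size factors the counts higher in AL and in PT were 292 and 66, 455 and 214, 104 and 160, and 23 and 52, so the balance kept its turn. After removal of the 4 PT females they were 185 and 60, 306 and 209, 87 and 166, and 15 and 61. AL females also averaged more detected gene models and a larger scaling factor, with the values above, and their part in this pattern was not tested.

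In 108 genes every AL female was above every PT female (1.41%), and in 65 genes every PT female was above every AL female (0.85%). Of these, 106 and 65 were also called by the test. With the 6 remaining PT females the counts of separated genes were 180 and 148, where fewer butterflies had to be separated. A stricter rule asked for at least 1 CPM in every female of an island and under 1 CPM in every female of the other. It was met by 9 genes present in AL (0.118%) and by 2 genes present in PT (0.0262%), each of them called. In the other 68 butterflies of the study, 33 from AL and 35 from PT, the medians differed in the same direction for all 108 and all 65 separated genes, against 75.1% of all genes with the higher median in AL and 74.6% of those with the higher median in PT. In those butterflies 6 of all genes tested were separated with AL above PT and 6 with PT above AL. Of the 108, 5 were among them, and of the 65, 5 were, while none of the 9 or the 2 was. Among all 16667 models, 3 had reads in every AL female and none in any PT female, and 1 had reads in every PT female and none in any AL female.

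The genes with the largest differences at a mean of at least 5 CPM were low or close to absent in the flown females of one island. MCINXTMP_005136 had 4.30, 14.6 and 19.5 CPM as its lowest, median and highest values in AL females, and 0, 0 and 0.297 CPM in PT females. A single read in PT female 7 was the only one among 10 PT butterflies, against 325 reads in AL females. By reads relative to the totals the AL level was 439 times the PT level, with a 95% interval for counting error of 78.3 to 17410. That interval leaves out variation between butterflies. The log2 difference by edgeR's fit over butterflies was 7.71, with an edgeR adjusted p of 3.1e-09. In the other 68 butterflies the transcript ran from 0 to 8.86 CPM in AL, with a median of 3.20 CPM, and from 0 to 0.808 CPM in PT. The islands thus overlapped there. MCINXTMP_010010 had a lowest, median and highest level of 4.95, 300 and 748 CPM in AL females, and of 0.431, 2.36 and 10.4 CPM in PT females, which gives 6.36 ± 1.2 on the log2 scale (± SE of the fit here and below; edgeR adjusted p = 0.000444). This transcript varied widely within AL: females 5 and 1 had 4.95 and 15.2 CPM, so female 5 lay within the PT range. Among the other AL butterflies the median was 6.53 CPM and the range 0 to 821, and in the other PT butterflies the highest value was 9.29 CPM.

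The reverse pattern was as sharp. MCINXTMP_009063 had 0, 0 and 0.622 CPM as its lowest, median and highest values in AL females, and 22.9, 46.1 and 67.0 CPM in PT females. All 10 PT females were above all AL females, of which only female 6 had any reads, 2 in number, against 1621 reads in PT. The PT level was 599.5 times the AL level by reads relative to the totals (95% interval for counting error 165.7 to 4955). By edgeR's fit over butterflies the log2 difference was -8.7 (edgeR adjusted p = 7.23e-08). In the other PT butterflies it had a median of 30.0 CPM, with 0 in the lowest. MCINXTMP_003926 had a lowest, median and highest level of 0, 0.243 and 0.859 CPM in AL females, and of 0, 45.5 and 127 CPM in PT females, or -7.09 ± 1.28 on the log2 scale (edgeR adjusted p = 5.75e-06). Here PT was split: females 1 and 4 had no reads, and the other 8 had 24.5 to 127 CPM. By limma voom with sample weights its log2 difference was -6.07 with an adjusted p of 0.102. PT butterflies outside these 17 also included some at 0, with a median of 72.4 CPM.

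**Figure D3:**
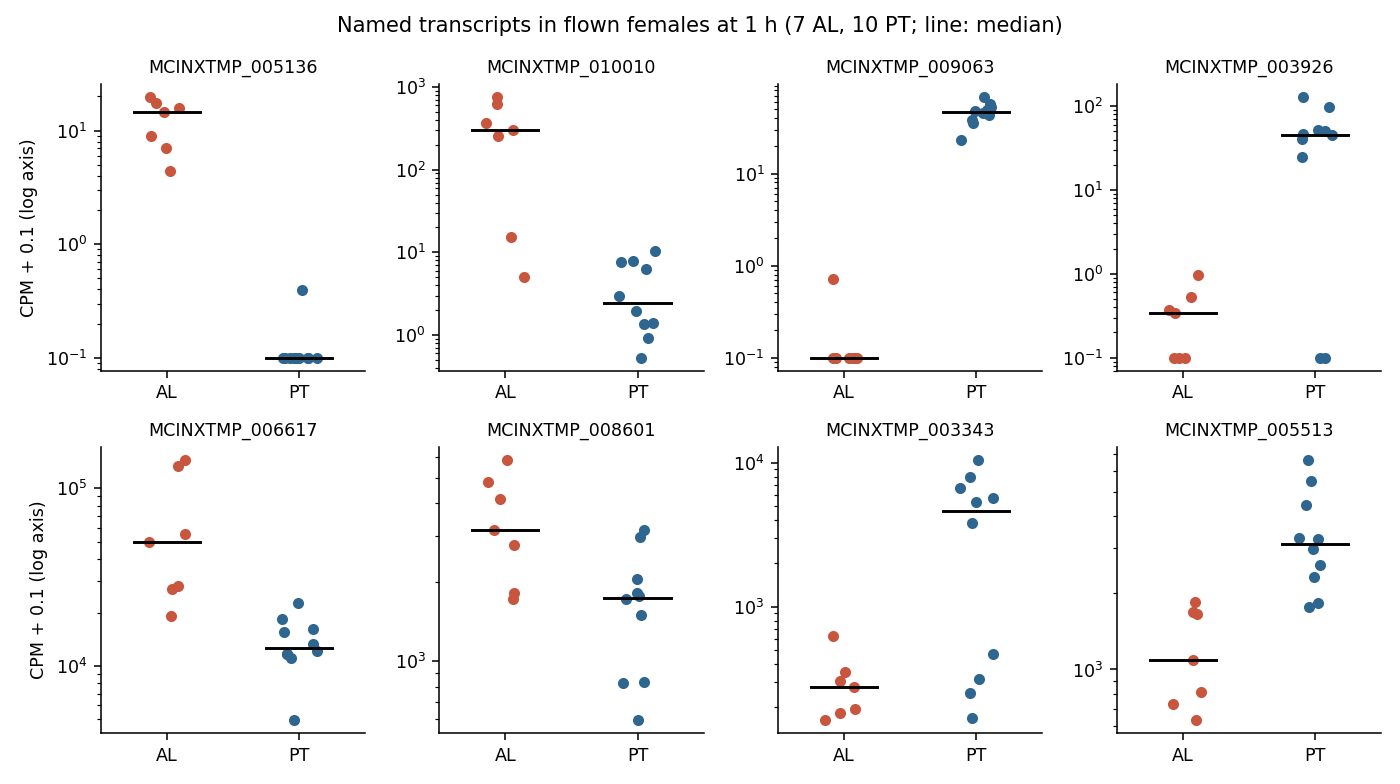
CPM + 0.1 on a log axis for 8 transcripts in the 7 AL and 10 PT flown females at 1 h (points; line: median). The upper row shows the largest differences among called genes and the lower row the largest among the 100 most abundant genes. MCINXTMP_005136 and MCINXTMP_009063 separate the islands fully, while MCINXTMP_003926 is at 0 in 2 PT females and MCINXTMP_003343 falls into 2 clusters of PT females.

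The 100 genes with the highest mean CPM held 59.2% ± 6.27 of all counts in AL females and 60.8% ± 2.1 in PT females (SD, n = 7 and 10). Of these, 28 were called (28%), against 17.6% of all genes tested and 32.8% of the genes above 500 CPM. Among the 28, 6 had AL above PT and 22 PT above AL, and 13 differed more than 2-fold. The median log2 difference over all 100 was -0.27, against 0.03 over all genes tested. Under DESeq2 size factors 8 had AL above PT and 19 PT above AL. With the 4 PT females left out the counts were 2 and 24.

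MCINXTMP_006617 was the abundant transcript with the largest excess in AL. It had a lowest, median and highest level of 19150, 49940 and 144200 CPM in AL females, and of 4949, 12680 and 22480 CPM in PT females (log2 difference 2.25 ± 0.4, edgeR adjusted p = 2.38e-05). AL females 1 and 5 were far above the rest at 144200 and 133400 CPM, and 6 of 7 AL females were above every PT female. MCINXTMP_008601 had 1723, 3146 and 5832 CPM in AL females, and 595, 1742 and 3158 CPM in PT females, or 1.01 ± 0.28 on the log2 scale (edgeR adjusted p = 0.00623). The groups overlapped, and without the 4 PT females the log2 difference was 0.76 with an edgeR adjusted p of 0.0825.

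MCINXTMP_003343 had a lowest, median and highest level of 162, 278 and 623 CPM in AL females, and of 169, 4600 and 10460 CPM in PT females (log2 difference -3.78 ± 0.79, edgeR adjusted p = 0.00234). PT females fell into separate clusters: females 1, 5, 10 and 2 had 169, 252, 312 and 467 CPM, within the AL range, and the other 6 had 3814 to 10460 CPM. These are not the same 4 females as those low for the flight transcripts, with which they share females 1 and 2. MCINXTMP_005513 had 632, 1091 and 1834 CPM in AL females, and 1765, 3119 and 6650 CPM in PT females, or -1.52 ± 0.3 on the log2 scale (edgeR adjusted p = 0.000316). The islands barely overlapped for this transcript, with 8 of 10 PT females above every AL female.

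Spread between butterflies was close in size on both islands. The SD of log2 CPM over butterflies had a median over genes of 0.825 in AL and 0.897 in PT, and 46.0% of genes had the larger SD in AL. The median log2 ratio of AL over PT was -0.066, and it ran from -0.121 to 0.025 when each female was left out. By level, the median SD was 1.09 in AL and 1.13 in PT under 5 CPM, and 0.617 in AL and 0.509 in PT above 500 CPM. The 20 transcripts that rose with flight had a median SD of 0.67 in AL and 1.45 in PT, and in all 20 the SD was larger in PT, against 54% of all genes. The split of PT females described above was part of that spread.

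Whether the difference belongs to the island at large or to these 17 butterflies was examined in 3 pairs of groups with none of these females. In control females at 1 h, 389 genes were called between the islands (5.09%), in flown females at 20 h 1349 (17.7%), and in flown males at 1 h 745 (9.75%). Of the 1343 genes called in flown females at 1 h, 1255 had the same direction in control females (93.5%, against 71.6% of all genes tested). In flown females at 20 h, 1256 had the same direction (93.5%, against 71.4%). In flown males at 1 h, 1207 had it (89.9%, against 67.8%). Most of the called differences thus had the same sign in butterflies of other treatments and of the other sex. With the 4 PT females left out, the shares were 91.2% in control females, 93.8% in flown females at 20 h and 87.7% in flown males, of 1089 called genes. The same direction in all 3 pairs was found for 1092 of the 1343 genes (81.3%), against 44.0% of all genes tested.

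Genes called both in flown females at 1 h and elsewhere were 284 with control females, which is 21.1% of the 1343 and 73.0% of the 389. With flown females at 20 h they were 691, which is 51.5% of the 1343 and 51.2% of the 1349. With flown males they were 446, which is 33.2% of the 1343 and 59.9% of the 745. All of the shared calls had the same direction in control females and in flown females at 20 h, and 444 of 446 had it in males. The groups differ in size, so these shares do not rank the pairs. Of the 1343, 178 (13.25%) were called the same way in all 3 pairs, and 816 (60.76%) in at least 1. In no other pair were 526 (39.2%) called. Of the 6300 genes not called in flown females at 1 h, 912 were called in at least 1 of the 3 pairs. Across the 7643 genes, the log2 differences in flown females at 1 h had Pearson correlations of 0.658 with control females, 0.698 with flown females at 20 h and 0.658 with flown males. Genes are not independent replicates, so these are descriptions.

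**Figure D4:**
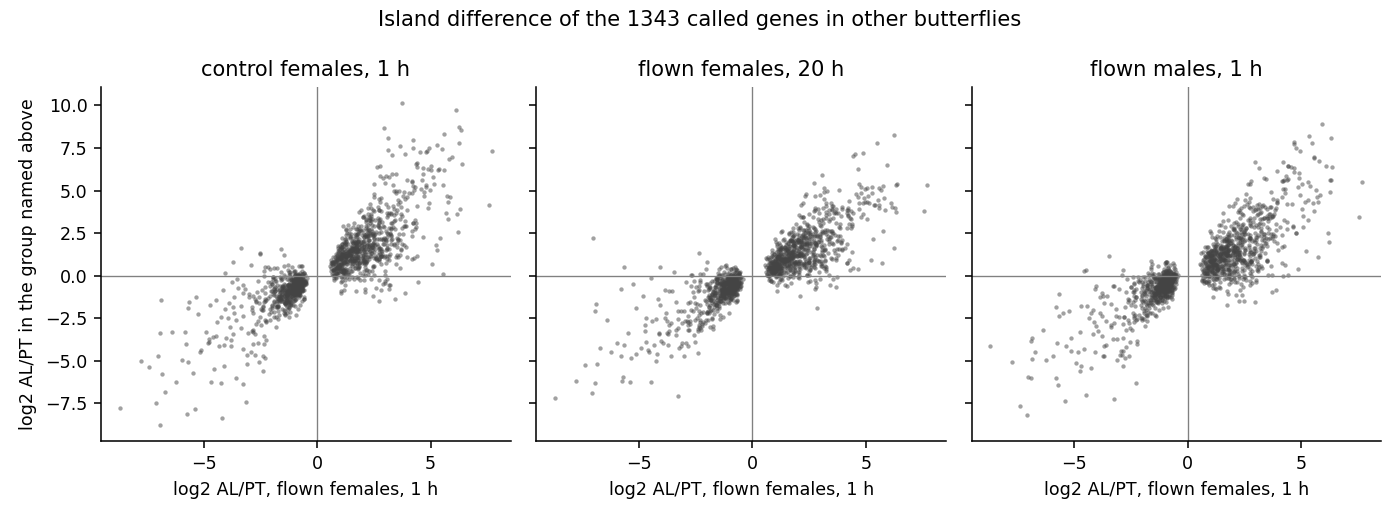
Log2 difference of AL over PT for the 1343 genes called in flown females at 1 h (horizontal axes) against the same difference in control females at 1 h, flown females at 20 h and flown males at 1 h (vertical axes; each point is a gene). Most points lie in the quadrants of equal sign, 1255, 1256 and 1207 of 1343.

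The 8 transcripts named for the island difference (4 among all called genes, 4 among the most abundant) had the same sign in all 3 pairs. For MCINXTMP_009063 the log2 difference was -7.74 in control females, -7.15 in flown females at 20 h and -4.12 in flown males (edgeR adjusted p = 0.000403, 3.31e-09 and 0.00258). For MCINXTMP_006617 it was 2.34, 1.55 and 1.3 in the same order (edgeR adjusted p = 0.0112, 0.0021 and 0.0655). MCINXTMP_005513 had -1.36, -1.57 and -1.41 (edgeR adjusted p = 0.0539, 2.64e-05 and 0.00528). The size of the difference for this abundant transcript was close to the -1.52 of flown females at 1 h in all 3. MCINXTMP_008601 had 1.05, 0.24 and 1.19 (edgeR adjusted p = 0.121, 0.575 and 0.0111), so of the 3 pairs it was called in males, and the 1 h against 20 h difference in females was 0.76 ± 0.38 (edgeR adjusted p = 0.579).

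The next tests asked whether the island difference itself depended on flight, time or sex. They use the same 17 females, so their values are not independent of those above. For flight, the island difference in flown females minus that in control females was called in no gene (0%) by edgeR. DESeq2 called 9 genes and limma voom 0, and 381 genes had an unadjusted p under 0.05 by edgeR. The median SE of that difference was 0.88 on the log2 scale with 4 control females per island, against 0.5 for the island difference in flown females. A 2-fold change of the island difference, which is 1 on this scale, was therefore not detectable for most genes. The count was also 0 without the 4 PT females.

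For time, the island difference in females 1 h after flight minus that at 20 h was called in 1 gene (0.0131%), with 653 genes at an unadjusted p under 0.05. MCINXTMP_016177 had 145, 205 and 510 CPM as its lowest, median and highest values in AL females at 1 h, and 78.1, 120 and 185 CPM in PT females at 1 h. At 20 h it averaged 99.8 ± 24.1 CPM in AL and 146 ± 52.6 CPM in PT (SD, n = 10 and 9). AL females were the higher ones at 1 h, and at 20 h the AL mean was below the PT mean. The log2 island difference was 1.08 ± 0.24 at 1 h (edgeR adjusted p = 0.00046) and -0.55 ± 0.22 at 20 h (edgeR adjusted p = 0.0723), and it changed by 1.62 ± 0.32 (edgeR adjusted p = 0.0186). The call was lost without AL females 1 or 2 at 1 h, AL female 7 at 20 h, or PT females 1 or 6 at 20 h, with edgeR adjusted p between 0.0505 and 0.151. It was also lost without the 4 PT females, where the change was 1.64 with an edgeR adjusted p of 0.113. In control females at 1 h this transcript averaged 193 ± 62.1 CPM in AL and 143 ± 49.9 CPM in PT (SD, n = 4 each). Control females at 20 h averaged 132 ± 53.9 CPM in AL and 162 ± 66.35 CPM in PT (SD, n = 4 and 5). Flown males averaged 231 CPM in AL and 188 CPM in PT at 1 h, and 122 and 170 CPM at 20 h. The order of the island means thus also turned in control females and flown males, which was not tested. Control males had the reverse, 210 CPM in AL and 221 CPM in PT at 1 h. At 20 h they had 187 and 124 CPM, with 2 or 3 butterflies per group.

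For sex, the island difference 1 h after flight in females minus that in males was called in 1 gene (0.0131%), with 721 genes at an unadjusted p under 0.05. MCINXTMP_004100 had 223, 378 and 567 CPM as its lowest, median and highest values in AL females, and 357, 726 and 1017 CPM in PT females. In flown males it averaged 727 ± 190 CPM in AL and 409 ± 156 CPM in PT (SD, n = 6 each). The island order was thus opposite in the sexes. The log2 island difference was -0.95 ± 0.23 in females (edgeR adjusted p = 0.00203) and 0.83 ± 0.27 in males (edgeR adjusted p = 0.0322), a gap of -1.78 ± 0.35 (edgeR adjusted p = 0.0223). The call was lost without AL female 2, PT female 6, AL males 1 or 6, or PT males 2, 5 or 6, with edgeR adjusted p between 0.0532 and 0.109. After removal of the 4 PT females 6 genes were called for sex, and this one had a gap of -1.96 with an edgeR adjusted p of 0.00642. MCINXTMP_008302, named after its values were seen, was the other gene called in opposite directions in females (-0.63) and males (0.72), and its gap of -1.35 had an edgeR adjusted p of 0.0539.

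**Figure D5:**
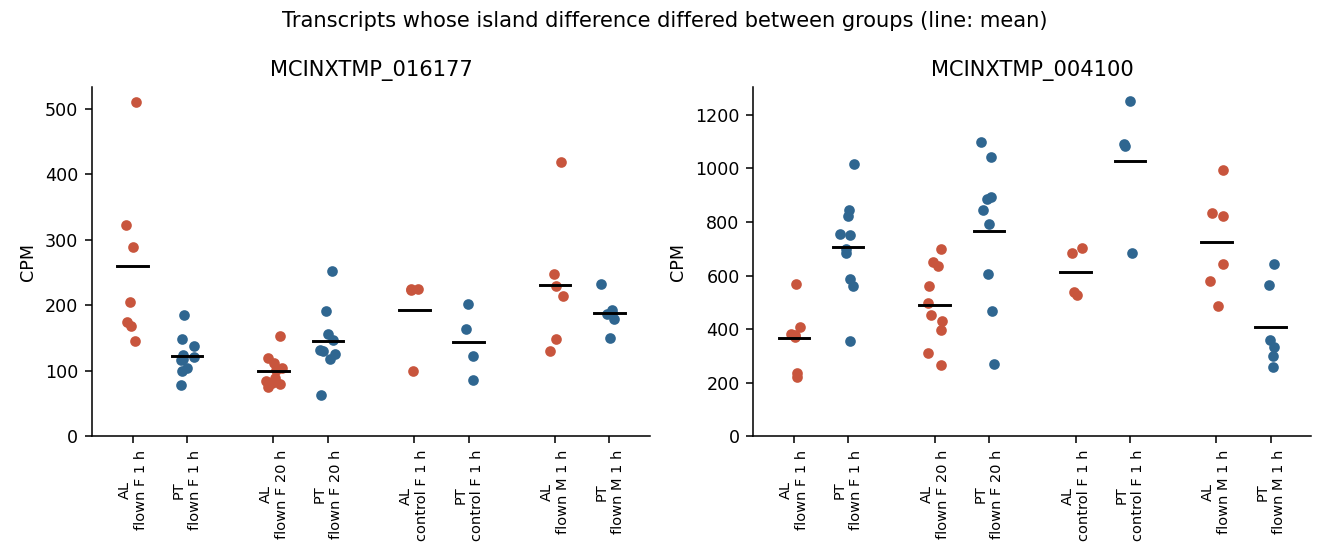
CPM of MCINXTMP_016177 and MCINXTMP_004100 in single butterflies of 4 pairs of groups, AL left of PT (points; line: mean of the group; F female, M male). MCINXTMP_016177 is higher in AL than in PT females at 1 h, 259 against 123 CPM on average, and MCINXTMP_004100 is lower in AL than in PT females, 366 against 708 CPM on average, and higher in AL than in PT males.

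Last, the transcripts that responded to flight at 1 h were compared between the islands in the flown females. Of the 25, 1 was called, which is 4% against 17.6% of all genes tested, and the median log2 difference of the 25 was 0.03, the same as over all genes. That gene, MCINXTMP_001756, was higher in AL by 1.54 on the log2 scale (edgeR adjusted p = 0.0429). It is among the 20 rising transcripts, for whose mean 4 PT flown females lay within the range of 1 h control females. The part of those 4 females in this call was not tested. The list was selected on tests that include the flown females and average the flight effect over both islands. The rising transcripts also had the larger SD in PT, as given above, which makes a call less likely. The 4% thus does not show whether the islands responded alike. MCINXTMP_003386, which had the largest rise with flight, had 36.4, 52.4 and 102 CPM as its lowest, median and highest values in AL females, and 0.594, 51.7 and 134 CPM in PT females. PT females 7, 4, 2 and 1 had 0.594, 1.42, 2.15 and 2.62 CPM, below every AL female, and the other 6 had 37.6 to 134 CPM. Control females at 1 h averaged 2.02 ± 1.11 CPM in AL and 4.50 ± 7.01 CPM in PT (SD, n = 4 each), and those at 20 h 15.9 ± 22.1 CPM in AL and 37.4 ± 34.7 CPM in PT (SD, n = 4 and 5). The medians of the islands were thus close although the PT values were split, and the log2 difference was 0.21 ± 0.75 (edgeR adjusted p = 0.89).

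MCINXTMP_009203 showed the same split. It had 173, 299 and 650 CPM in AL females, and 4.05, 172 and 630 CPM in PT females (log2 difference 0.69 ± 0.65, edgeR adjusted p = 0.503). PT females 4, 7, 2 and 1 had 4.05, 9.20, 10.8 and 18.7 CPM, near the 1 h control females, which averaged 17.6 ± 8.54 CPM in AL and 12.6 ± 11.0 CPM in PT (SD, n = 4 each). At 20 h control females averaged 49.6 ± 61.9 CPM in AL and 103 ± 108 CPM in PT (SD, n = 4 and 5). The tools differed on both transcripts: limma voom with sample weights gave log2 differences of 1.9 for MCINXTMP_003386 and 2.11 for MCINXTMP_009203 (limma adjusted p = 0.0427 and 0.0201). Why the tools differed was not tested.

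No comparison of the list without the 4 PT females is given, since they were picked by their low levels of these same transcripts. Of the transcripts that fell with flight, MCINXTMP_011856 had a log2 difference of -0.47 ± 0.63 and MCINXTMP_011855 of -1.07 ± 0.51 with all 17 females (edgeR adjusted p = 0.664 and 0.152).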

How the data were processed

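Total RNA of the thorax was made into strand-specific polyA-anchored libraries of 450 and 650 nt inserts for each butterfly, per the labels' protocols. For each library the authors deposited raw counts of reads by gene model, not normalized. CASAVA 1.8, TopHat2 2.0.5 and edgeR are listed per the submitters' processing notes. Genome build, annotation, counter and use of strand in counting: not given in the sources used here. Thus reads of overlapping genes or near-identical copies may be split. A normalized table of the series was not used here.

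Counts of both libraries of a butterfly were summed, and the butterfly is the replicate. Library totals of the 17 females ran from 659410 to 2705019. No libraries were identical, and 34 of 34 correlated best with their own butterfly's second library. filterByExpr over the 4 treatments left 7643 of 16667 gene models (99.76% of counts). edgeR 4.0.16 (R 4.3.3, TMM, robust quasi-likelihood F test) was fitted to all 85 butterflies with 16 group means, and p-values were adjusted by Benjamini-Hochberg over all genes tested. Called means an adjusted p under 0.05. SE are Wald errors of the fitted contrast, and log2 CPM used a prior count of 2. The flight test used 8 island by treatment means and sex as a term. Exact permutation tests used all 19448 assignments, and 95% intervals of read ratios cover counting error only. The procedure was run on simulated counts, whose outcome is not given here. Those counts held neither the split of PT females nor differences between the other groups. Alternatives used limma 3.58.1, DESeq2 1.42.0, other scaling, filters and libraries, and left out butterflies.

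Named genes are the 2 largest differences each way among called genes averaging at least 5 CPM, the same among the 100 most abundant, and the 2 largest rises and falls with flight. The members, lists and rules were chosen with earlier results of these data known. Identifiers were matched to the ilMelCinx1.1 RefSeq table, with 0 matches.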

Additional observations from a re-analysis of the deposited data

Results flagged for a closer look

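Among 42 sets of values (named transcripts, depth measures and principal components, each within an island), 4 held a butterfly far from the rest. The rule, a large gap to the next value, flags about 1 in 20 by chance only where values are normally distributed. For MCINXTMP_009063 in AL and MCINXTMP_005136 in PT all other females had no reads, so any read was flagged. AL female 6 was the only AL female with reads of MCINXTMP_009063, at 0.622 CPM. PT female 7 was the only PT female with a read of MCINXTMP_005136, at 0.297 CPM. For MCINXTMP_006617, PT female 1 was the lowest at 4949 CPM. On the second principal component the same PT female 1 was the highest at 97.6.

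The island difference differed between groups by a test of the difference itself in 2 transcripts. MCINXTMP_016177 changed by 1.62 on the log2 scale between 1 h and 20 h in flown females. MCINXTMP_004100 differed by -1.78 on the log2 scale between flown females and flown males at 1 h. Both calls were lost when single butterflies were left out, as given with their values.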

How the results depend on the processing

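The island difference in flown females at 1 h was called in 849 genes with the 450 nt libraries alone, where counts were fewer, in 953 with the 650 nt libraries and in 1073 to 1347 with each female left out. It was called in 1675 genes by DESeq2, 1390 by limma voom, 1660 without a filter and 1133 with the 17 females alone. The transcripts named for that comparison or by the rule for flight kept their side of the threshold in it, with these exceptions. MCINXTMP_003926 lost its call by limma voom, and MCINXTMP_008601 lost it without the 4 PT females. MCINXTMP_003386 and MCINXTMP_009203 gained one by limma voom. MCINXTMP_016177 and MCINXTMP_004100 were followed only in the tests for time and for sex. For flown minus control females, DESeq2 called 9 genes, and leaving out each butterfly gave 0. For 1 h minus 20 h, the count was 0 without a filter, with the 450 nt libraries, without the 4 PT females and with only the groups compared, 6 by limma voom, 12 by DESeq2, and 0 to 5 with each butterfly left out. For females minus males it was 2 with DESeq2 size factors, 2 without a filter, 21 by limma voom, 0 and 3 with the 450 nt and 650 nt libraries, 35 by DESeq2, 6 without the 4 PT females, 4 with a filter over the groups compared, 3 with only those groups, and 0 to 9 with each butterfly left out. The cause of these moves was not tested. Flight at 1 h was called in 24 genes with DESeq2 size factors. The share of called genes with the same direction in other butterflies was lowest without a filter, at 83.1% in control females, 89.3% in flown females at 20 h and 83.0% in flown males. No paired analysis was possible because the labels give no replicate numbers shared between the islands. Depth limits transcripts of a few reads per butterfly, and 4 control females per island limit the test of flight.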
